A study of Homo sapiens with 16 samples.

Results

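The intervals described here lie just past the annotated 3′ ends of protein-coding genes in HEK293, a human embryonic kidney cell line. An interval was placed in this downstream zone when its midpoint lay 0 to 5 kb past the end of a protein-coding gene of GENCODE release 44, read along the strand of the gene, outside every annotated gene body and more than 1 kb from any transcript start, on chromosomes 1 to 22 or X. Of the 74404 intervals in the deposited count table, 1727 met this rule, downstream of 1574 genes. CUT&Tag, in which an antibody brings a transposase to its target so that the DNA nearby is cut, tagged and sequenced, was measured for CTCF, RAD21, H3K27ac and GFP. All 16 libraries came from cells of the eGFP-YAP genotype; the GFP antibody reads tagged YAP, and its libraries are called YAP1 here. For each of the 4 targets, 2 libraries came from cells given vehicle and 2 from cells given sorbitol at 200 mM for 1 h, a hyperosmotic stress. The series design adds that serum was withdrawn for 1 h before the stress. The promoter that drives eGFP-YAP, whether the line is a single clone, and whether the libraries of a group came from separate cultures are not given in the sources used here, so p-values measure the spread between these libraries, which may be technical. Column names give vehicle 0 h and sorbitol 1 h, so time and treatment cannot be told apart, although the labels describe untreated cells as collected in parallel. Libraries made with a control antibody were not used here.

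At the end of a protein-coding gene, the nascent transcript is cleaved and polyadenylated while RNA polymerase II runs on until it is released. Hyperosmotic stress is known to weaken this termination at many genes, which gives read-through RNA called downstream-of-gene transcripts. CTCF is a zinc finger protein that binds a long DNA motif and halts the cohesin ring, of which RAD21 is a subunit; both shape chromatin loops. YAP is a coactivator with no DNA-binding domain of its own and reaches DNA mainly through TEAD factors. H3K27ac, acetylation of histone H3, marks active promoters and enhancers. The targets measured here are neither RNA nor polymerase, so read-through itself was not measured; the question is whether chromatin in these zones changed with the stress.

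Zone intervals had a median width of 471 bp, against 422 bp over all intervals, and their midpoints lay a median of 2086 bp past the gene end. They were densest next to the gene: 481 lay in the first kb, 355 in the second, 308 in the third, 295 in the fourth and 288 in the last. In 1632 of the 1727 the whole interval was outside genes, and 95 reached into a gene body. Of the 1727, 209 lay downstream of more than 1 gene end, and 137 genes had 2 or more zone intervals, which are then not independent of each other. Median GC content was 54.3% in the zone and 54.2% over all intervals. The CTCF consensus, with at most 1 mismatch on either strand of the central 300-base window, was present in 33.2% of zone windows, in 275 of the 887 windows of the upstream flank (intervals outside genes and 1 to 5 kb upstream of a gene start), in 19.9% of remote intergenic windows (5304 intervals more than 20 kb from any gene) and in 16.5% of all windows. The AP-1 site TGANTCA was present in 152 of the 1727 zone windows and in 8.42% of all windows. The TEAD hexamer GGAATG, read on both strands, was present in 17.5% and 14.5%. The polyadenylation hexamer AATAAA was present on the strand of the gene in 9.67% of zone windows and on the opposite strand in 8.63%. Of all windows, 8.82% held it on the plus strand. On either strand it was present in 17.1% of zone windows and 16.2% of all windows. A match is a description of the letters in the window and not a site of binding or cleavage.

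The central 200 bases, read from hg38 along the strand of the gene, are shown for the zone interval with the largest rise with sorbitol for each of the 4 targets and for the largest falls of CTCF and YAP1, because 3 of these 4 rises and neither of these falls lie in tandem repeats. Here and below, largest means among called zone intervals with a level above the median of tested intervals and with groups that do not overlap. Outside this limit, CTCF had 1 larger rise, RAD21 had 3, YAP1 had 2 and H3K27ac had 18, of which 1, 2, 1 and 1 were tandem repeats. In the same order there were 15, 5, 2 and 1 larger falls, with 0 tandem repeats. Capitals mark 1 copy of a tandemly repeated unit in UVSSA, DBNDD1 and SLC22A18, and the TEAD hexamer in ADGB. The windows past GADD45B and MEPE hold none of the CTCF, AP-1 and TEAD motifs.
GADD45B (CTCF rise, chr19:2479320-2479519, plus strand): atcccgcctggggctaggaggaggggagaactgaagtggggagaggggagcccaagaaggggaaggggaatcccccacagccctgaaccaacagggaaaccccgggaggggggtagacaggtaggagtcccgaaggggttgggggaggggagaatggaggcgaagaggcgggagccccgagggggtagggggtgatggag
MEPE (CTCF fall, chr4:87849008-87849207, plus strand): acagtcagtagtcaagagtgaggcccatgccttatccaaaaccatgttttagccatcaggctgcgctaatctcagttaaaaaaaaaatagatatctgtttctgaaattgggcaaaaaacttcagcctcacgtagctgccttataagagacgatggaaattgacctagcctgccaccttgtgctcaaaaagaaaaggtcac
UVSSA (RAD21 rise, chr4:1397738-1397937, plus strand): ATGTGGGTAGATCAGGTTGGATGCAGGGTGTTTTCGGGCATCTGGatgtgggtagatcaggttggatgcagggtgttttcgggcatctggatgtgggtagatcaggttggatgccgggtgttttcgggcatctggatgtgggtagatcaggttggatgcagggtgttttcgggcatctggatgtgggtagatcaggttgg
DBNDD1 (YAP1 rise, chr16:90003800-90003999, minus strand): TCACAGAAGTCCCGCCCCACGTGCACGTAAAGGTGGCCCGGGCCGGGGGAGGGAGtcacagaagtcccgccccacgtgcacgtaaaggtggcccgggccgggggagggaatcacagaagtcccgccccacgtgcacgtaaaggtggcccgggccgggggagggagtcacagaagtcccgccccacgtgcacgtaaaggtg
ADGB (YAP1 fall, chr6:146816008-146816207, plus strand): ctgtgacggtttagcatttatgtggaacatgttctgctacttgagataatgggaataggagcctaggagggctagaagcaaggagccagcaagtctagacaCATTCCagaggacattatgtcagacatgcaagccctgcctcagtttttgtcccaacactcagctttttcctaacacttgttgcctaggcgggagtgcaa
SLC22A18 (H3K27ac rise, chr11:2926088-2926287, plus strand): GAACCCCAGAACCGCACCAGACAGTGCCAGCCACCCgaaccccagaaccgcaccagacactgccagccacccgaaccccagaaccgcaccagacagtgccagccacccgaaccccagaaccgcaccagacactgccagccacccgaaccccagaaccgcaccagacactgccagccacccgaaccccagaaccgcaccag
A stretch was called a tandem repeat when its 300-base window matched itself over at least 80% of bases at an offset of 10 to 100 bases, a measure chosen after these sequences were seen. The repeated unit was 45 bases long downstream of UVSSA, 55 downstream of DBNDD1 and 36 downstream of SLC22A18, and the best self-match was 98.1%, 98.4% and 98.7%. The windows past GADD45B, MEPE and ADGB did not reach the limit. Short reads from such repeats cannot be assigned to 1 copy, and the number of copies in HEK293 can differ from that in hg38.

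A CTCF library held 2838517 to 4512161 counts in all, a RAD21 library 1187939 to 2295019, a YAP1 library 2337173 to 3820932 and an H3K27ac library 6541568 to 8842656. The median zone interval held 27 and 41 counts in the CTCF libraries with vehicle and 8 and 9 with sorbitol, 2 to 12 in RAD21 libraries, 2 to 8 in YAP1 libraries and 14 to 25 in H3K27ac libraries. The mitochondrial share of counts in CTCF libraries was 15.7% and 19.9% with vehicle, against 32.8% and 33.9% with sorbitol. In RAD21 libraries it was 34.3% and 38.5% against 44.8% and 46.0%, in YAP1 libraries 36.5% and 38.1% against 55.4% and 57.8%, and in H3K27ac libraries 1.95% to 2.08%. Its part in the results below was not tested. Levels below are CPM, the count of an interval relative to the TMM-scaled size of its library, given as mean ± SD of 2 libraries, and log2 fold changes are of sorbitol over vehicle with their standard error. A call has an adjusted p under 0.05 in the quasi-likelihood test of edgeR over all tested intervals of that target. Directions depend on the scaling: over all tested intervals the median log2 fold change was -0.06 for CTCF under TMM, -1.04 under scaling to the total count and 0.29 under scaling to the weakest 25% of intervals. For RAD21 the same 3 medians were -0.01, -0.60 and 0.44. YAP1 had -0.04, -1.46 and -0.05, and H3K27ac 0.02, 0.17 and -0.23. The total count includes mitochondrial intervals, so a higher mitochondrial share lowers the scaled level of all other intervals under that scaling. How far this moved or removed calls there was not tested.

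CTCF signal in the zone fell more often than it rose. Of 1200 zone intervals tested, 367 were lower and 158 higher with sorbitol, which is 43.8% called against 40.2% of all 39261 tested intervals. By direction, 20.7% of all tested intervals were lower and 19.5% higher, and of those in the zone 30.6% and 13.2%. The median log2 fold change was -0.41 in the zone, -0.45 in the upstream flank, -0.57 in remote intergenic intervals and -0.54 over all intervals outside promoters. The zone held 3.54% ± 0.154 of CTCF counts with vehicle and 2.27% ± 0.0242 with sorbitol (SD, n = 2 here and throughout), both computed without mitochondrial intervals and intervals that share sequence with them. Under scaling to the total count 860 zone intervals were lower and 34 higher, against 53.6% and 5.37% of all tested intervals. Under scaling to the weakest 25% of intervals 238 were lower and 273 higher, against 13.4% and 29.1%, so the lean to lower levels did not hold under this scaling. Without vehicle replicate 1 the number called was 315, and without vehicle replicate 2 it was 304, with 22.6% and 22.1% of all tested intervals called.

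The largest CTCF falls were past genes of varied function. The interval 2294 bp past MEPE, a gene for a bone matrix protein, held 79 and 62 counts in the vehicle libraries, against 3 and 0 in the sorbitol libraries. Its log2 fold change was -4.09 ± 0.65 (adjusted p = 4.1e-05, edgeR), and the ratio of counts, vehicle over sorbitol at equal depth, was 17.5 with an exact 95% counting interval of 5.86 to 85.8. Both sorbitol libraries were far below both vehicle libraries. The interval 1004 bp past EXO1, an exonuclease of mismatch repair, went from 89 and 66 counts to 4 and 0 (log2 fold change -3.82 ± 0.61). The interval 4350 bp past PRKCI, an atypical protein kinase C, went from 159 and 89 counts to 4 and 4 (log2 fold change -3.49 ± 0.42, adjusted p = 9.4e-07, edgeR); this one holds the CTCF consensus. The interval 2904 bp past LIMS1, an adaptor of focal adhesions, went from 76 and 49 counts to 2 and 2, a ratio of 11.6 with a counting interval of 4.43 to 43.3.

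The largest CTCF rise was 1161 bp past GADD45B, a stress-induced gene (chr19:2479311-2479529). Its counts were 2 and 5 with vehicle and 78 and 83 with sorbitol, 0.747 ± 0.617 and 40.5 ± 0.261 CPM, and the log2 fold change was 5.87 ± 0.41 (adjusted p = 1.2e-10, edgeR). The next 3 rises within the limit on level were all in tandem repeats. The interval 942 bp past SLC22A18, a transporter gene, went from 2 and 14 to 62 and 31 counts (log2 fold change 3.89 ± 0.60), and that 971 bp past DBNDD1 from 13 and 6 to 66 and 38 (log2 fold change 3.87 ± 0.41). The interval 1849 bp past UVSSA, a factor of transcription-coupled repair, went from 6 and 32 to 60 and 32 counts (log2 fold change 2.61 ± 0.70), a call lost with DESeq2 (adjusted p = 0.14) and with a replicate block (adjusted p = 0.085, edgeR). At UVSSA 1 vehicle and 1 sorbitol library held 32 counts each, and only the scaled values of the groups were apart. Of the 158 zone intervals higher for CTCF, 14 were tandem repeats (8.86%), against 1 of the 367 lower (0.272%) and 23 of the 1200 tested (1.92%). Over all tested intervals, the shares were 5.28% of those higher and 0.173% of those lower, with 589 tandem repeats among the 39261 tested. The other 144 higher zone intervals were not tandem repeats.

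GC content ordered the CTCF changes in the zone. Intervals were split into 3 classes of equal size by the GC content of all intervals, with limits at 49.4% and 58.9%. In the GC-poor class, 157 of 380 tested zone intervals were lower and 12 higher, with a median log2 fold change of -1.03. In the middle class 140 of 465 were lower and 56 higher (median -0.40), and in the GC-rich class 70 of 355 were lower and 90 higher (median 0.07). All intervals outside promoters gave -0.99, -0.44 and 0.21 in the same classes, which is the same order. Of those tested, 36.7%, 26.9% and 15.6% were lower, against 41.3%, 30.1% and 19.7% in the zone. The shares higher were 5.34%, 9.90% and 27.6%, against 3.16%, 12.0% and 25.4% in the zone. These differences were not tested. Zone intervals with the CTCF consensus had a median of -0.35 and those without it -0.44. Where a zone lay downstream of 2 or more gene ends, 31 of 147 tested intervals were higher and 32 lower (median -0.14), against 127 and 335 of 1053 downstream of 1 end (median -0.48). With GC-corrected offsets 436 zone intervals were called for CTCF in place of 525, and over all tested intervals 31.3% in place of 40.2%.

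**Figure D1:**
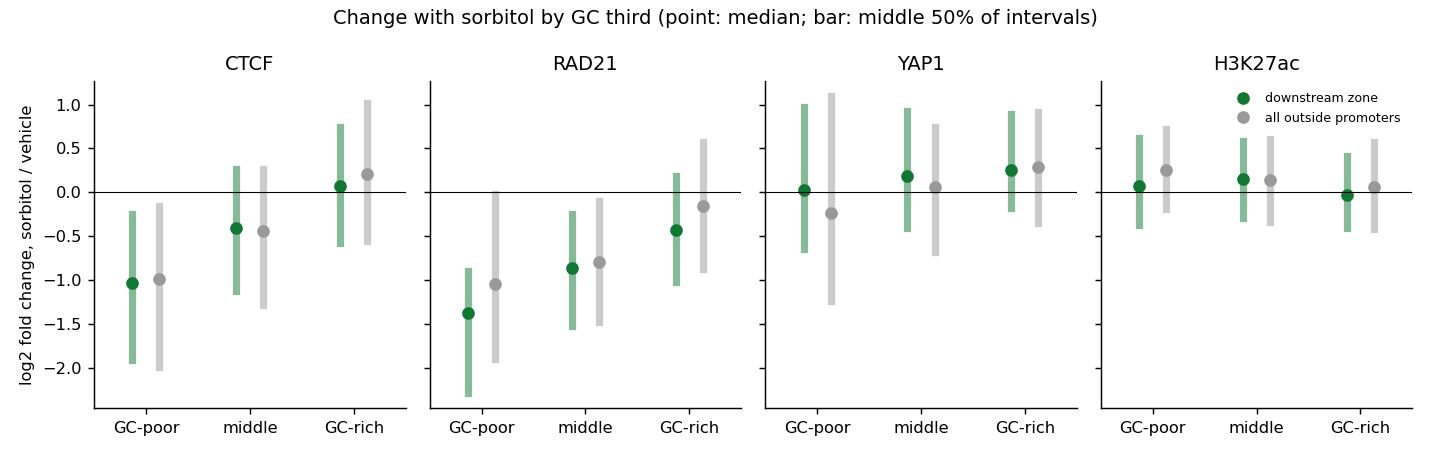
Log2 fold change (sorbitol over vehicle) of tested intervals in 3 classes of GC content, for zone intervals (green) and all intervals outside promoters (grey); points are medians and bars span the middle 50% of intervals. CTCF medians in the zone rise from -1.03 to 0.07 with GC content and RAD21 medians from -1.38 to -0.43, while H3K27ac medians stay between -0.04 and 0.15.

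RAD21 signal was sparse in the zone, and few intervals were called. Of 444 tested, 16 were lower and 6 higher, 4.95% against 4.79% of all 17011 tested intervals. By direction, 1.45% of all tested intervals were lower and 3.34% higher. The median log2 fold change was -0.75 in the zone, -0.58 in the upstream flank, -0.46 in remote intergenic intervals and -0.61 outside promoters. The share of counts that fell in the zone was 2.07% ± 0.227 with vehicle and 1.35% ± 0.0401 with sorbitol. Scaling to the total count gave 72 lower and 3 higher in the zone, against 6.94% and 1.59% of all tested intervals. Scaling to the weakest 25% of intervals gave 10 lower and 18 higher, against 0.876% and 9.42%. The number called was 14 without vehicle replicate 1, of which 10 were higher and 4 lower, 42 without sorbitol replicate 1 and 40 without sorbitol replicate 2.

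The largest RAD21 fall was 3005 bp past EIF2S3, which encodes a subunit of translation initiation factor eIF2. Its counts went from 67 and 17 to 3 and 0, a ratio of 13.7 with a counting interval of 4.54 to 67.9 (log2 fold change -3.62 ± 0.80, adjusted p = 0.024, edgeR), and CTCF there went from 148 and 120 to 7 and 4. The interval 1535 bp past NOC4L, a factor of ribosome assembly, went from 60 and 20 counts to 3 and 3 (ratio 6.53, counting interval 2.87 to 18.3), and that 1386 bp past CSRP1 from 74 and 23 to 6 and 4. Both of these hold the CTCF consensus, and CTCF was lower at both (log2 fold change -1.17 ± 0.23 and -1.28 ± 0.15). Without vehicle replicate 1 RAD21 did not pass at EIF2S3, NOC4L or CSRP1 (adjusted p = 0.32, 0.23 and 0.19, edgeR), nor at CSRP1 without sorbitol replicate 2 (adjusted p = 0.069, edgeR). Of the 6 zone intervals higher for RAD21, 4 were tandem repeats, against 0 of the 16 lower, 15 of the 444 tested, and 84 of the 568 higher over all intervals. One of the 4 was the interval 1849 bp past UVSSA, where counts were 8 and 15 with vehicle and 46 and 28 with sorbitol; it did not pass without vehicle replicate 1 (adjusted p = 0.09, edgeR) or under scaling to the total count (adjusted p = 0.063, edgeR). Among the 19 zone intervals called for both CTCF and RAD21, 13 were lower for both, 6 were higher for both and 0 went opposite ways. Among all 697 intervals called for both, 27.5% were lower for both and 71.9% higher. The 19 were 8.23% of the 231 CTCF calls and 86.4% of the 22 RAD21 calls among intervals tested for both.

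YAP1 signal was higher at 25 zone intervals and lower at 8 of the 500 tested, 6.60% called against 6.83% of all 22765 tested intervals. By direction, 5.34% of all tested intervals were higher and 1.49% lower. The median log2 fold change was 0.23 in the zone, 0.10 in the upstream flank, 0.04 in remote intergenic intervals and 0.12 outside promoters. The share of counts that fell in the zone was 1.203% ± 0.0224 with vehicle and 0.992% ± 0.0572 with sorbitol, so it went the other way from the median. Remote intergenic intervals were called higher more often, 165 of 682 (24.2%) against 5.00% in the zone; this difference was not tested. Scaling to the total count gave 6 higher and 219 lower in the zone, against 1.48% and 63.5% of all tested intervals, so the direction of YAP1 changes rests on the scaling. Scaling to the weakest 25% of intervals gave 24 higher and 8 lower, against 5.25% and 1.61%. The number called was 14 without vehicle replicate 1, 16 without vehicle replicate 2 and 52 without sorbitol replicate 2.

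At DBNDD1, the repeat shown above went from 18 and 2 YAP1 counts to 38 and 25 (log2 fold change 3.62 ± 0.53, adjusted p = 0.00011, edgeR). At 655 bp past ERMARD, also in a tandem repeat, YAP1 counts went from 13 and 16 to 23 and 29 (log2 fold change 2.83 ± 0.46). In all, 7 of the 25 zone intervals higher for YAP1 were tandem repeats (28.0%), against 23 of the 500 tested (4.60%) and 209 of the 1216 higher over all intervals (17.2%). The other 18 included the intervals past GADD45B, JUND and ID2 described below. The largest fall was 646 bp past ADGB, the gene of a globin-like protein, from 58 and 43 counts to 2 and 2 (ratio 6.43, counting interval 2.44 to 24.1), and its window holds the TEAD hexamer. This fall did not pass without vehicle replicate 1 or replicate 2 (adjusted p = 0.22 and 0.11, edgeR). The interval 2782 bp past MUC2, a secreted mucin, went from 111 and 147 counts to 5 and 8 (log2 fold change -2.34 ± 0.44), and is a tandem repeat too. The other 15 tandem repeats tested for YAP1 were not called.

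H3K27ac changed in both directions. Of 1269 zone intervals tested, 123 were lower and 83 higher, 16.2% called against 23.1% of all 56601 tested intervals and 13.8% of those outside promoters. By direction, 14.5% of all tested intervals were lower and 8.59% higher. The median log2 fold change was 0.06 in the zone, -0.10 in the upstream flank, -0.01 in remote intergenic intervals and 0.16 outside promoters. The share of counts that fell in the zone was 0.923% ± 0.00999 with vehicle and 0.937% ± 0.0128 with sorbitol. Scaling to the total count gave 89 lower and 145 higher in the zone, against 10.4% and 14.3% of all tested intervals. Scaling to the weakest 25% of intervals gave 218 lower and 39 higher, against 25.3% and 3.42%. The number called was 130 without sorbitol replicate 1 and 134 without sorbitol replicate 2.

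The largest H3K27ac fall within the limit on level was 588 bp past H2BC17, a replication-dependent histone gene, from 180 and 167 counts to 61 and 35, or from 28.2 ± 1.21 to 5.47 ± 1.58 CPM (log2 fold change -2.35 ± 0.20, adjusted p = 1.4e-11, edgeR). Its vehicle and sorbitol libraries were far apart, and CTCF there was higher (log2 fold change 1.96 ± 0.44, with an adjusted p of 0.075 in edgeR under scaling to the total count). The interval whose midpoint is 544 bp before the end of H2BC17 changed in the same directions. Its log2 fold change was -2.14 ± 0.15 for H3K27ac and 3.02 ± 0.28 for CTCF. The second zone interval of this gene, 1813 bp past its end, was also lower for H3K27ac (-1.76 ± 0.26). CTCF there went the other way, at -0.85 ± 0.45, and was not called (adjusted p = 0.14, edgeR). The interval 3301 bp past GPRC5C, an orphan receptor gene, went from 72 and 49 counts to 35 and 5, and its sorbitol libraries differed widely from each other; with DESeq2 it did not pass (adjusted p = 0.17). The interval 3740 bp past RPL3, a protein of the large ribosomal subunit, went from 74 and 60 counts to 22 and 31 (log2 fold change -1.81 ± 0.30). The largest rise within the limit on level, which 37 of the 83 higher intervals met, was in the SLC22A18 repeat, from 16 and 15 counts to 61 and 83 (log2 fold change 1.73 ± 0.34). It was followed by the interval 3189 bp past FGR, a Src-family kinase gene, from 16 and 22 to 72 and 91 counts (log2 fold change 1.62 ± 0.31), which is not a repeat. The interval 489 bp past PI4K2A, a lipid kinase gene, went from 20 and 22 to 78 and 68 counts (log2 fold change 1.30 ± 0.30).

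**Figure D2:**
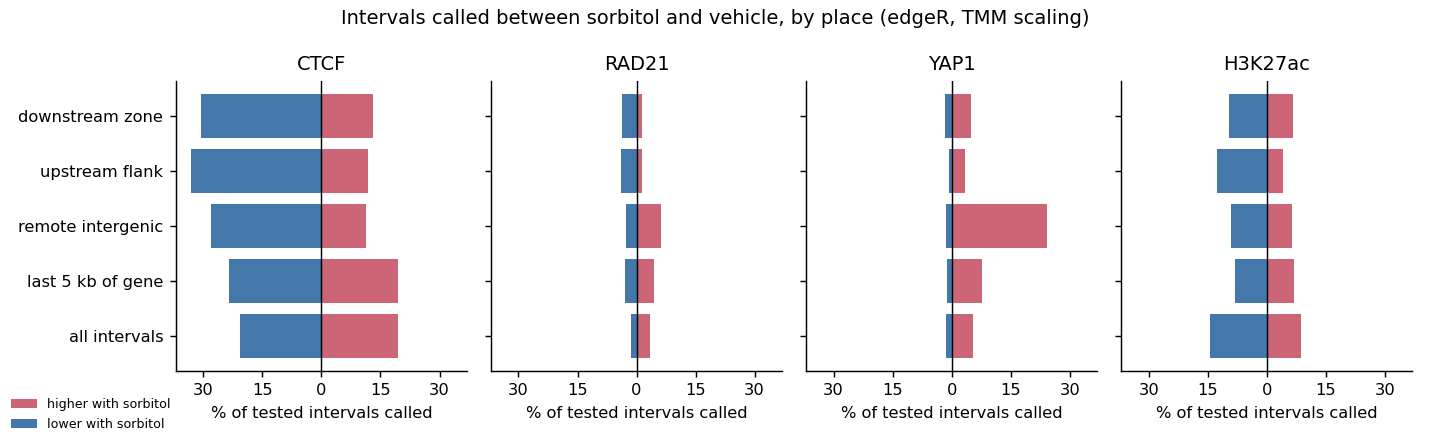
Percent of tested intervals called lower (left, blue) and higher (right, red) with sorbitol, by place and target, from edgeR with TMM scaling; both sides are on 1 linear axis. For CTCF the zone leans to lower (30.6%), as do the upstream flank (33.2%) and remote intergenic intervals (28.2%), and for YAP1 remote intergenic intervals stand apart at 24.2% higher.

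Median changes in H3K27ac were small on both sides of the gene end, and each bin downstream had a lower median than each bin inside. In 1-kb bins the median log2 fold change of H3K27ac was 0.12, 0.16, 0.11, 0.14 and 0.11 over the last 5 kb inside genes and 0.09, 0.07, 0.09, -0.02 and 0.03 over the first 5 kb downstream, with 205 to 430 tested intervals a bin. CTCF medians were -0.15, -0.24, -0.29, -0.25 and -0.29 inside the gene and -0.24, -0.30, -0.62, -0.49 and -0.69 downstream, so they were lowest 2 kb or more past the end. RAD21 medians were -0.59 to -0.32 inside and -0.58 to -1.02 downstream. YAP1 medians lay between 0.17 and 0.65 inside and between -0.01 and 0.53 downstream. The level of the first kb downstream minus that of the last kb inside, as medians of log2 CPM within a library, for CTCF was 0.21 ± 0.0589 with vehicle, against 0.04 ± 0.0599 with sorbitol. H3K27ac had 0.03 ± 0.0478 and 0.13 ± 0.0710, RAD21 -0.05 ± 0.0737 and -0.24 ± 0.0851, and YAP1 0.01 ± 0.0962 and -0.11 ± 0.150. These steps were compared by their spread only, and the YAP1 and H3K27ac steps differed between treatments by less than the sum of both SDs. No step was tested, for CTCF and RAD21 either. These medians move in steps of whole counts. The step was exactly 0 in CTCF sorbitol replicate 2, RAD21 vehicle replicate 2, YAP1 sorbitol replicate 1 and H3K27ac vehicle replicate 1.

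**Figure D3:**
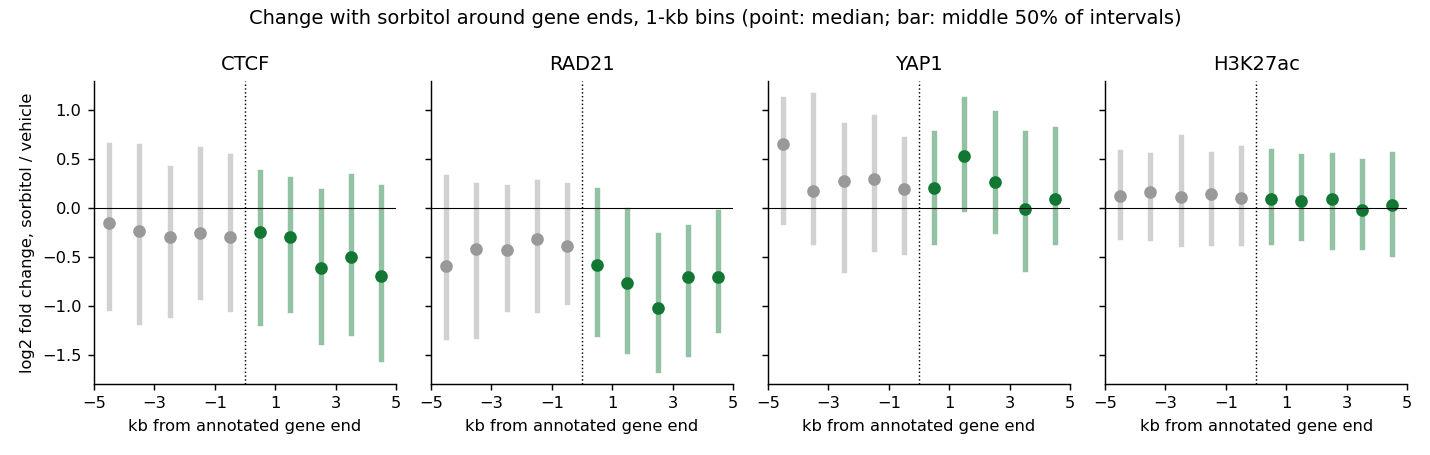
Log2 fold change (sorbitol over vehicle) of tested intervals in 1-kb bins from 5 kb inside (grey) to 5 kb past (green) the annotated end of protein-coding genes; points are medians and bars span the middle 50% of intervals. CTCF medians go from -0.24 in the first kb downstream to -0.69 in the last, and H3K27ac medians stay between -0.02 and 0.16 on both sides.

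Within a library, the zone can be compared with other classes without scaling between libraries. The median log2 CPM of tested zone intervals minus that of the upstream flank, for CTCF, was 0.16 ± 0.0682 with vehicle against 0.14 ± 0.0680 with sorbitol, and the libraries of the groups overlapped (change -0.03). For H3K27ac it was -0.18 and -0.09 in the vehicle libraries and 0.00 in both sorbitol libraries, a change of 0.13 (exact permutation p = 0.33, two-sided, the smallest that 2 against 2 libraries allow). For RAD21 it was 0.00 in both vehicle libraries and -0.16 and -0.18 with sorbitol, a change of -0.17 (exact permutation p = 0.33). Against remote intergenic intervals, CTCF changed from 1.07 ± 0.0195 to 0.95 ± 0.00166 and RAD21 from 0.18 ± 0.115 to -0.17 ± 0.0150, with no overlap between groups. Without sorbitol replicate 1 or 2 the RAD21 change shrank from -0.35 to -0.14 and the groups overlapped. The CTCF change of -0.11 was -0.46 with GC-corrected offsets and between -0.18 and -0.07 with 1 library left out. The YAP1 differences overlapped between groups in both comparisons. Values of exactly 0 arise because medians of low whole-number counts coincide, and other values move in steps of whole counts. For RAD21 with sorbitol, the upstream flank and remote intergenic medians were equal within each library (3.26 and 3.29 log2 CPM). The zone medians were 3.10 and 3.11 log2 CPM, so each gap was a step between neighbouring low counts.

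**Figure D4:**
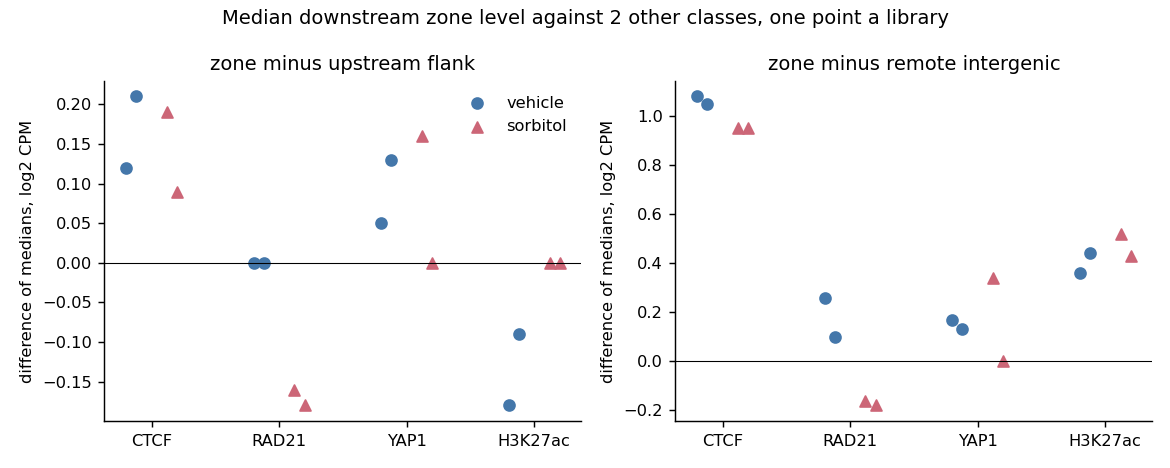
Median log2 CPM of tested zone intervals minus the median of the upstream flank (left) or of remote intergenic intervals (right), 1 point per library (circles, vehicle; triangles, sorbitol). Vehicle and sorbitol points are apart for RAD21 in both panels, for H3K27ac on the left and for CTCF on the right, and overlap in the other comparisons. The RAD21 values with sorbitol are steps between neighbouring low counts.

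Most zone intervals were called for at most 1 target: 1054 for none, 576 for 1, 82 for 2, 14 for 3 and 1 for 4. The same counts over all intervals are not given here, so these do not show whether the zone differs. Of the 1727, 1584 were tested for at least 1 target, 293 for all 4 and 143 for none, so an interval not called can still have changed. The 1 interval called for all 4 targets was 4665 bp past UBE2J2, a ubiquitin-conjugating enzyme of the endoplasmic reticulum, and it was higher in each. On the log2 scale CTCF rose by 1.79 ± 0.21, RAD21 by 1.61 ± 0.33, YAP1 by 1.96 ± 0.41 and H3K27ac by 0.55 ± 0.19. The H3K27ac call was lost without vehicle replicate 2 and without sorbitol replicate 2 (adjusted p = 0.16 and 0.52, edgeR), and the RAD21 and YAP1 calls under scaling to the total count (adjusted p = 0.10 and 0.29, edgeR). This interval is a tandem repeat with a best self-match of 100% at an offset of 66 bases. Of 19 zone intervals called for both CTCF and YAP1, 18 were higher for both, as were 91.8% of the 1044 called for both among all intervals. Of 71 called for both CTCF and H3K27ac, 29 were higher for CTCF and lower for H3K27ac, 15 were higher for both, 14 were lower for both and 13 were lower for CTCF and higher for H3K27ac. Among all 4040 intervals called for both, these 4 shares were 66.5%, 16.1%, 9.46% and 7.95%; the difference from the zone was not tested.

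The GADD45B zone interval rose for 3 targets from near 0. RAD21 counts there were 2 and 2 with vehicle and 22 and 20 with sorbitol, a ratio of 21.4 with a counting interval of 7.77 to 82.3 (log2 fold change 4.27 ± 0.68, adjusted p = 0.0035, edgeR). YAP1 counts were 1 and 1 with vehicle and 38 and 19 with sorbitol, a ratio of 112 with a counting interval of 29.6 to 946. Every sorbitol library exceeded every vehicle library for CTCF, RAD21 and YAP1, and these 3 calls held in every alternative in which the interval was tested. H3K27ac counts, 3 and 1 against 11 and 3, were too low to be tested. The window is not a tandem repeat, with a best self-match of 41.5%. The change was not limited to the zone: inside the gene, the interval whose midpoint is 1397 bp before the end rose for CTCF from 7.39 ± 0.581 to 270 ± 16.2 CPM and for YAP1 from 6.78 ± 0.185 to 182 ± 28.5 CPM, while H3K27ac there fell from 27.8 ± 0.983 to 6.81 ± 1.37 CPM (log2 fold change -2.02 ± 0.19).

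JUND and ID2 had zone intervals in which CTCF and YAP1 rose and H3K27ac fell. JUND encodes a subunit of the AP-1 transcription factor, and its interval (chr19:18279418-18279833, midpoint 68 bp past the end) reaches into the gene. CTCF there was 21.6 and 17.03 CPM with vehicle and 53.3 and 55.4 CPM with sorbitol (log2 fold change 1.48 ± 0.19, adjusted p = 3.7e-06, edgeR), and YAP1 was 6.16 and 5.92 CPM against 18.5 and 20.3 CPM. H3K27ac was 9.35 and 11.1 CPM with vehicle and 2.16 and 2.24 CPM with sorbitol (log2 fold change -2.21 ± 0.32), again with no overlap. ID2, an inhibitor of helix-loop-helix factors, had an interval 1046 bp past its end (chr2:8684793-8686221). CTCF rose there by 1.05 ± 0.18 and YAP1 by 2.06 ± 0.34, and H3K27ac fell from 37.9 and 38.7 CPM to 14.3 and 12.8 CPM (log2 fold change -1.50 ± 0.15, adjusted p = 4.5e-10, edgeR). Under scaling to the total count CTCF and YAP1 did not pass at JUND (adjusted p = 0.068 and 0.57, edgeR) or at ID2 (adjusted p = 0.82 and 0.14, edgeR). With GC-corrected offsets the CTCF change at ID2 was 0.25 (adjusted p = 0.30, edgeR), whereas H3K27ac at both passed in every alternative. RAD21 was 27.6 ± 2.75 CPM with vehicle and 27.9 ± 0.939 CPM with sorbitol at ID2. The JUND and ID2 changes were not limited to the zone. With its midpoint 712 bp before the JUND end, an interval had log2 fold changes of 4.05 ± 0.21 (CTCF), 3.10 ± 0.28 (YAP1) and -1.89 ± 0.20 (H3K27ac). At 2336 bp before the ID2 end they were 2.69 ± 0.22, 2.78 ± 0.20 and -1.69 ± 0.15. Another interval, 5339 bp before the ID2 end, was not called for YAP1 (-0.48 ± 0.39). The intervals 871 bp past ZNF703, a zinc finger cofactor, and 2440 bp past GPRC5C had the same 3 directions, with CTCF changes of 1.29 ± 0.14 and 2.00 ± 0.22 and H3K27ac changes of -0.73 ± 0.13 and -0.91 ± 0.13. Under scaling to the total count, the YAP1 value at GPRC5C was -0.26, and CTCF and YAP1 did not pass at ZNF703 (adjusted p = 0.12 and 1, edgeR). YAP1 did not pass at ZNF703 without vehicle replicate 1 (adjusted p = 0.18, edgeR), nor at GPRC5C without vehicle replicate 1, vehicle replicate 2 or sorbitol replicate 1 (adjusted p = 0.49, 0.18 and 0.20, edgeR).

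**Figure D5:**
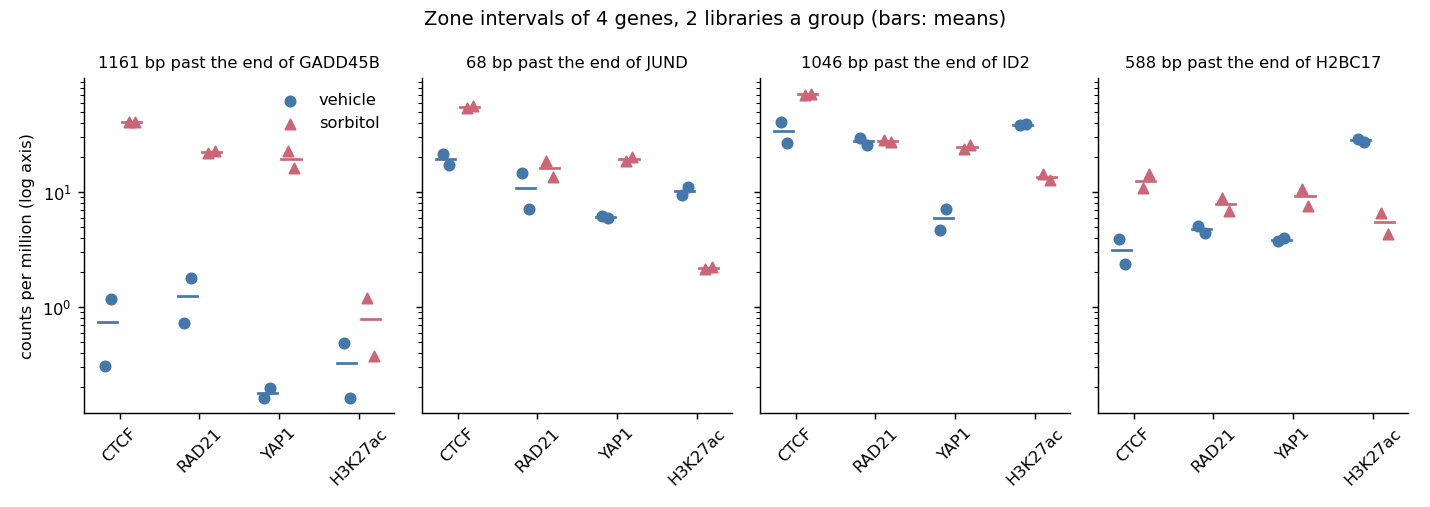
CPM (log axis) in each library for the zone intervals past GADD45B, JUND and ID2 and for the one 588 bp past H2BC17. Circles are vehicle, triangles sorbitol, and short bars the means of 2 libraries. The other zone interval past H2BC17 is not drawn. CTCF is higher with sorbitol in all 4 panels, and H3K27ac is lower past JUND, ID2 and H2BC17 and near 0 past GADD45B.

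Of 37 stress and immediate early genes, 7 had a zone interval, against 7.88% of all 19970 protein-coding genes. They had 8 intervals in all: for CTCF 4 of 6 tested were higher and 1 lower, for RAD21 1 of 3 higher, for YAP1 2 of 6 higher, and for H3K27ac 0 of 6 higher and 3 lower. Over all tested intervals, 19.5% were higher and 20.7% lower for CTCF, 3.34% higher for RAD21, 5.34% higher for YAP1, and 8.59% higher and 14.5% lower for H3K27ac. Both intervals past HES1, a repressor in Notch signalling, were higher for CTCF (2.42 ± 0.45 and 2.40 ± 0.39) and lower for H3K27ac (-1.03 ± 0.31 and -1.09 ± 0.22). The interval past KLF4, a transcription factor, was lower for CTCF, from 39 and 18 counts to 2 and 2. Of 20 osmolyte and volume control genes, 2 had an interval. Past SLC6A12, the betaine transporter that loads cells with osmolyte, H3K27ac fell from 49 and 57 to 41 and 39 counts, in deeper libraries (log2 fold change -0.89 ± 0.28). Of 27 YAP target genes, 6 had 7 zone intervals, and 1 of 4 tested for YAP1 was higher (GADD45B) and 1 lower. The lower one was 633 bp past NUAK2, a kinase gene, from 161 and 136 to 22 and 10 counts (log2 fold change -1.25 ± 0.30, adjusted p = 0.013, edgeR). With 1 library left out, several of these calls were lost. For H3K27ac the adjusted p in edgeR rose to 0.22 at 1 HES1 interval and to 0.13 at SLC6A12, both without vehicle replicate 2. It rose to 0.34 for CTCF at KLF4 without vehicle replicate 1 and to 0.16 for YAP1 at NUAK2 without vehicle replicate 2. Some also did not pass with GC-corrected offsets. These were CTCF at KLF4 (-1.35, adjusted p = 0.20, edgeR) and H3K27ac at SLC6A12 (-0.67, adjusted p = 0.086, edgeR). H3K27ac 2220 bp past HES1 was -0.77 (adjusted p = 0.067, edgeR). With DESeq2 the SLC6A12 call was lost too (adjusted p = 0.071). CXXC4 and SERBP1, listed as genes with described downstream-of-gene transcripts, had no zone interval.

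The other lists had few tested intervals. Over all tested intervals, 19.5% were higher and 20.7% lower for CTCF, and 8.59% higher and 14.5% lower for H3K27ac. Differences of the lists from these shares were not tested. Replication-dependent histone genes had 3 zone intervals, past H2AC15 and H2BC17, and all 3 were lower for H3K27ac (-1.30 ± 0.16, -2.35 ± 0.20 and -1.76 ± 0.26), with a median of -1.76 against 0.02 over all tested intervals. Ribosomal protein genes had 14 intervals. For H3K27ac 1 of 13 tested was lower and none higher (median 0.30), and for CTCF 2 of 9 were lower and 1 higher (median -0.17). The CTCF fall past RPS19, a small-subunit protein, went from 129 and 89 to 3 and 5 counts (log2 fold change -3.33 ± 0.43, adjusted p = 2.8e-06, edgeR). Zinc finger genes had 21 intervals, with 4 higher and 2 lower of 13 tested for CTCF and 0 higher and 5 lower of 16 for H3K27ac. Genes of cohesin and CTCF had 3 intervals, of which the one 4441 bp past SMC3, a cohesin subunit, was lower for CTCF (64 and 32 to 2 and 7 counts). The SMC3 fall did not pass with GC-corrected offsets (-1.14, adjusted p = 0.14, edgeR), and without vehicle replicate 1 it was -1.75. The 1 zone interval of 20 heat shock and chaperone genes, past HSPA8, was tested for CTCF alone and not called. The 1 zone interval of 27 cleavage, polyadenylation and termination genes, past PAPOLA, was too low to be tested for any target.

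The zone intervals with the highest vehicle level were unusual loci. The interval 1862 bp past AMPD3, an AMP deaminase gene, led all 4 targets. Its vehicle level was 964 CPM per kb in CTCF libraries, 2662 in RAD21, 1943 in YAP1 and 163 in H3K27ac libraries. It was the only zone interval to share 31-base stretches with the mitochondrial genome, so reads from either cannot be told apart. Its YAP1 level went from 2159 to 8966 CPM and its CTCF level from 1070.45 to 3752 CPM, beside the higher mitochondrial share. For RAD21 and CTCF it was followed by the interval 4783 bp past WASH6P, a tandem repeat near the end of chromosome X past a gene with near-identical copies elsewhere, and for YAP1 by that 3578 bp past UBE2G2, a ubiquitin-conjugating enzyme gene, at 247 CPM per kb. For H3K27ac the next were 2842 bp past CDKN2C, an inhibitor of cyclin-dependent kinases (116 CPM per kb), and 584 bp past CCR10, a chemokine receptor gene (115 CPM per kb). H3K27ac at both was lower with sorbitol, with log2 fold changes of -0.47 ± 0.06 and -1.36 ± 0.10.

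Of the 1574 genes, 1027 also had an interval within 1 kb of their own start. For H3K27ac, 86 zone intervals called lower had a tested promoter, and 55 of these promoters were lower and 3 higher. Beside 51 zone intervals called higher, 12 promoters were lower and 8 higher. Among 745 zone intervals not called, 244 promoters were lower and 73 higher. Of all tested promoter intervals, 27.3% were lower and 10.1% higher for H3K27ac. For CTCF, 58 of 100 promoters were higher beside a higher zone, 75 of 211 beside a lower zone and 167 of 384 beside a zone not called. In the same order, 7, 6 and 23 promoters were lower. Of all tested promoter intervals, 29.5% were higher and 9.77% lower for CTCF. Across genes, the log2 fold changes of zone and promoter had a Pearson correlation of 0.25 over 882 pairs for H3K27ac and 0.17 over 695 pairs for CTCF. With RAD21 it was 0.23 over 227 pairs, and with YAP1 0.20 over 329. Both values of a pair come from the same libraries, and genes are not independent replicates. Where the next protein-coding gene lay on the same strand, the H3K27ac median was 0.07 over 753 intervals, and where it lay on the opposite strand and pointed back at the zone, 0.04 over 513.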

How the data were processed

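Counts per interval in 16 CUT&Tag libraries were used as the authors deposited them, whole and unscaled. Per the submitters' processing notes, Trim Galore, FastQC, BWA 0.7.17, SAMtools, Picard, bedtools 2.31.1, MACS2 2.2.6 and hg38 (GRCh38) were used; their order and settings, and whether reads were pooled before the calling of peaks, are not given in the sources used here. All intervals lay within the lengths of hg38 chromosomes. The deposited starts were taken to count from 0, and printed positions count from 1.

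Each target was tested on its 4 libraries with the quasi-likelihood test of edgeR 4.0.16 (R 4.3.3; robust, two-sided), filterByExpr with a minimum of 10 counts, TMM scaling, and Benjamini-Hochberg adjustment over all its tested intervals. The step was tested on simulated data. Class medians were compared within libraries (log2 CPM, prior count 1) by exact permutation. Ratios at 1 to 3 counts carry exact 95% intervals that cover counting error only, since PCR copies are not independent molecules. The number of libraries and their depth limit the precision.

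Named intervals are, per target, the 4 largest rises and 4 largest falls among called intervals with a mean CPM above the median and groups that do not overlap, the 3 highest vehicle levels per kb, intervals called for at least 3 targets, and called members of gene lists. The intervals before the ends of GADD45B, JUND, ID2 and H2BC17 were chosen after their values were seen. The members and lists were chosen with earlier results of these data known. Alternatives were DESeq2 1.42.0 (local dispersion trend) and its size factors, other scalings, filters, zone limits and fits, a replicate block, GC-corrected offsets and each library left out. The omission of intervals that share sequence with mitochondrial DNA was chosen after seeing the data, as was the tandem repeat measure. Motif windows were 300 bases. Same-numbered libraries did not deviate together, with correlations between -0.00784 and 0.00486. The result for 1 list member and the sequences of 2 named intervals are not reported here.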

Additional observations from a re-analysis of the deposited data

How the results depend on the processing

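With 2 libraries a group and medians of 2 to 41 counts per zone interval, many changes at single intervals could not be detected. The number of zone intervals called for CTCF was 525; it was 894 under scaling to the total count, 253 at a mean of at least 50 counts, 235 in a zone of 0 to 2 kb, 292 more than 5 kb from any transcript start, and 304 to 472 with 1 library left out. For RAD21 it was 22, and in the same order 75, 8, 11, 15 and 14 to 42; it was 14 with DESeq2, 38 with no count filter and 84 in 1 fit on all 16 libraries. For YAP1 it was 33, and in the same order 225, 10, 16, 18 and 14 to 52; it was 50 in 1 fit on all libraries, 19 of them higher. For H3K27ac it was 206, and 234, 122, 103, 91 and 130 to 181; it was 99 with DESeq2 and 65 in 1 fit on all libraries, 36 of them higher. The smaller zones and stricter filter hold fewer intervals, and the cause of the other differences was not tested. At 0 to 2 kb, 561 CTCF, 214 RAD21, 254 YAP1 and 639 H3K27ac intervals were tested. More than 5 kb from a transcript start, 649, 218, 217 and 679 were tested. At a mean of 50 counts 503, 17, 37 and 320 were tested. There, 55.5%, 31.3%, 21.7% and 46.6% of all tested intervals were called. Under scaling to the total count that share was 59.0%, 8.53%, 65.0% and 24.8%. In 1 fit on all libraries it was 4.91% for RAD21, 5.79% for YAP1 and 6.43% for H3K27ac, with 1472 zone intervals tested. With DESeq2 it was 4.26% for RAD21 and 14.0% for H3K27ac, and with no count filter 1.81% for RAD21. With the replicate number as a replicate block, 461 CTCF, 11 RAD21, 29 YAP1 and 211 H3K27ac intervals were called, against 35.2%, 2.77%, 5.83% and 23.4% of all tested intervals. With GC-corrected offsets as well, 369, 20, 27 and 206 were called, against 26.1%, 5.24%, 5.76% and 22.2%. The labels do not say that a number marks a shared culture. The change in zone minus upstream flank was not stable in sign for CTCF, RAD21 and YAP1. For CTCF (-0.0261) it was 0.0084 at 0 to 2 kb, 0.0859 at a mean of 50 counts, 0.1321 by summed counts, and -0.0471 to 0.0537 with 1 library left out. For RAD21 (-0.1675) it was 0.1864 with no count filter, 0.0608 by summed counts, and -0.1917 to 0 with 1 library left out. For YAP1 (-0.0104) it was 0.0451 at 0 to 2 kb, 0.0161 more than 5 kb from a transcript start, 0.0713 with no filter, 0.2228 at a mean of 50 counts, 0.0424 with GC-corrected offsets and -0.0036 to 0.3808 with 1 library left out. For H3K27ac (0.1348) it kept its sign in all 12 alternatives, between 0.0194 and 0.2988. Against remote intergenic intervals, the YAP1 change (0.0241) was -1.4961 at a mean of 50 counts, -0.0056 without intervals sharing sequence with mitochondrial DNA and -0.8912 by summed counts, and the H3K27ac change (0.0772) was -0.1008 by summed counts. Of 103 calls at named intervals, 45 held in every alternative. Under scaling to the total count, the YAP1 changes past DEAF1, GPRC5C, WASH6P and ZNF778 were -0.111, -0.2616, -0.0529 and -0.3348, and the CTCF changes past FGR and RPS15 -0.3005 and -0.2694. The CTCF change past RPS15 was -0.215 with GC-corrected offsets and -0.2187 with the replicate block as well. The CTCF change past SLX9 was -0.5262 to 3.2881 with 1 library left out.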

Other observations

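Zone intervals also differed in how many targets could be measured. In 894 both CTCF and H3K27ac were tested, 284 were tested for CTCF alone and 326 for H3K27ac alone, and 143 were too low for every target. For CTCF the zone had a median of 14.98 ± 0.169 CPM per kb with vehicle and 9.89 ± 0.153 with sorbitol. The upstream flank had 16.4 ± 0.268 and 10.7 ± 0.0992 CPM per kb, and promoters 5.89 ± 0.0324 and 8.02 ± 0.0828, so the order of zone and promoter was the opposite of that for H3K27ac. For H3K27ac the zone had 5.67 ± 0.0436 and 6.38 ± 0.137 CPM per kb, and promoters 25.5 ± 0.177 and 20.9 ± 0.132. These levels rest on TMM scaling between the libraries of a target, so they cannot be ranked between targets.

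Tandem repeats recurred among the rises, and for H3K27ac among the falls too. They made up 7 of the 83 zone intervals higher for H3K27ac (8.43%) and 5 of the 123 lower (4.07%). Of the 1269 tested, 30 were tandem repeats (2.36%). Over all intervals, the shares were 3.39% of those higher and 0.659% of those lower for H3K27ac. For YAP1, 1 of the 8 lower zone intervals was a tandem repeat. The interval 918 bp past ZNF517, a zinc finger gene, is a tandem repeat in which RAD21 went from 1 and 0 counts to 24 and 18, a ratio of 85.7 with an exact 95% counting interval of 14.6 to 3465, and CTCF from 1 and 6 to 13 and 15 (adjusted p = 0.064 in edgeR without vehicle replicate 1). The interval 655 bp past ERMARD, also a tandem repeat, was called for CTCF, YAP1 and H3K27ac, all higher (log2 fold changes 2.41 ± 0.45, 2.83 ± 0.46 and 1.46 ± 0.36), the H3K27ac call with an adjusted p of 0.10 in edgeR without sorbitol replicate 2. The interval 4793 bp past LRCOL1 was higher for CTCF (1.69 ± 0.15) and RAD21 (1.36 ± 0.28) and lower for H3K27ac (-0.53 ± 0.15). Its best self-match was 77.1%, just under the limit of 80%. RAD21 there did not pass under scaling to the total count (0.76, adjusted p = 0.11, edgeR) or with GC-corrected offsets (0.78, adjusted p = 0.12, edgeR). H3K27ac was -0.19 with GC-corrected offsets (adjusted p = 0.40, edgeR) and -0.26 without vehicle replicate 2. Of all 1727 zone intervals, 37 were tandem repeats (2.14%), against 1.64% of all intervals and 2.28% of remote intergenic ones.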
